A study of Homo sapiens with 4 samples.

Results

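A set of 164 genes was at least 4-fold higher after knockdown of KPNA4 in Ca9-22 cells, an established cell line derived from gingival squamous carcinoma. KPNA4 encodes importin alpha 3, an adaptor that carries proteins with a nuclear localization signal into the nucleus. RNA came from 2 negative control and 2 KPNA4 knockdown cultures, and each culture was read on its own Agilent 1-color whole human genome array. The labels place the harvest 3 days after transfection of siRNA, whereas the study's own text speaks of short hairpin RNA, and no label gives an allele or drug. The control cultures went through the same transfection, and the labels name Ca9-22 for every culture, a line grown without stroma or other cells of the gingiva. The labels number the cultures within each group but do not say whether they were grown independently, so their spread may be partly technical.

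Members were chosen by level alone. A level is the log2 of the processed signal relative to the 75th percentile of its array, so that 0 marks the 75th percentile. Each gene is represented by its brightest probe. A member is an autosomal gene whose probe the scanner software called well above background on every array and whose mean in the knockdown cultures exceeded that in the control cultures by at least 2 on the log2 scale, which is 4-fold. Genes of the kallikrein (KLK), keratin (KRT), SPRR, S100 and SERPINB families were left out, as were SOX2 and BST2. Of 18503 genes with such a probe, 197 were that much higher, and 18 were left out for their family, 2 by name, 4 for lying on a sex chromosome and 9 because their probe had no gene name. The 164 members were 1.19% of the 13833 named autosomal genes outside these families, of which 39 were as much lower. Because the difference between the groups chose the members, their differences are given below as a description, with no test.

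KPNA4 itself lay at log2 levels of 4.02 and 4.03 in control cultures 1 and 2, and at 2.36 and 2.05 in knockdown cultures 1 and 2. It fell by 1.82 on the log2 scale (standard error 0.12, limma adjusted p = 0.00183), and the groups did not overlap. With normexp background correction, another way to remove background, the difference was -1.96 and the call was lost (limma adjusted p = 0.651). All 7 markers of squamous epithelium that were looked up, among them KRT5, TP63 and CDH1, were well above background on every array. Their summed linear level was 55.4 to 57.1. EPCAM was the brightest of them and weighs most in that sum. Its mean log2 level was 5.52 in the control and 5.01 in the knockdown cultures. KRT6A rose by 6.94, DSG3 by 1.73, KRT14 by 1.39, CDH1 by 1.16 and KRT5 by 0.998, while TP63 lay at -0.08. The even sum does not show these changes. Markers of 5 other cell types had summed levels of at most 0.58 on every array. Of these, 3 fibroblast, 2 endothelial, 2 leukocyte and 3 melanocyte markers were well above background on all 4 arrays, and no neuroendocrine marker was. PECAM1, KDR, TYR, CHGA, INSM1 and NEUROD1 were among those well above background on none. RPS4Y1, a Y-linked gene, was called well above background in both knockdown cultures and in neither control culture, at least 43.4-fold higher when the controls were set no lower than the lowest signal well above background on their array (limma adjusted p = 7.17e-04). Whether the control and knockdown cultures were the same line was not tested. A difference between lines would lie along the same groups as the knockdown, so in every knockdown minus control value given here it cannot be told apart from the knockdown. RNA of whole cultures was measured, so more cells of a type and more RNA per cell cannot be told apart.

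Squamous epithelium of the mouth and skin renews itself from a basal layer, and cells that leave it stop dividing and build a barrier of cross-linked proteins and lipids. Retinoic acid, a derivative of vitamin A, governs how far such cells go toward a keratinized or a mucosal form. The left-out keratins, SPRR and S100 proteins and kallikreins are the familiar products of that program. The 164 genes described here are those that stood as much higher outside those families.

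The differences ran from 2.00 to 6.24 with a median of 2.38, and the quartiles were 2.20 and 2.90. Over all 13833 genes the median difference was -0.06. At least 8-fold were 33 members and at least 16-fold 9, whereas 94 lay below 2.5. In all 164 both knockdown cultures lay above both control cultures, which also held for 35.1% of the 13833 genes. In 138 members each knockdown culture lay at least 4-fold above each control culture, and since any such gene meets the rule, these are also all of the genes, 0.998% of the 13833, for which this held. The knockdown cultures lay a median of 0.05 apart and at most 0.41, and the control cultures a median of 0.14 and at most 0.77. Knockdown culture 1 was the higher of the pair in 88 members and knockdown culture 2 in 76.

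**Figure D1:**
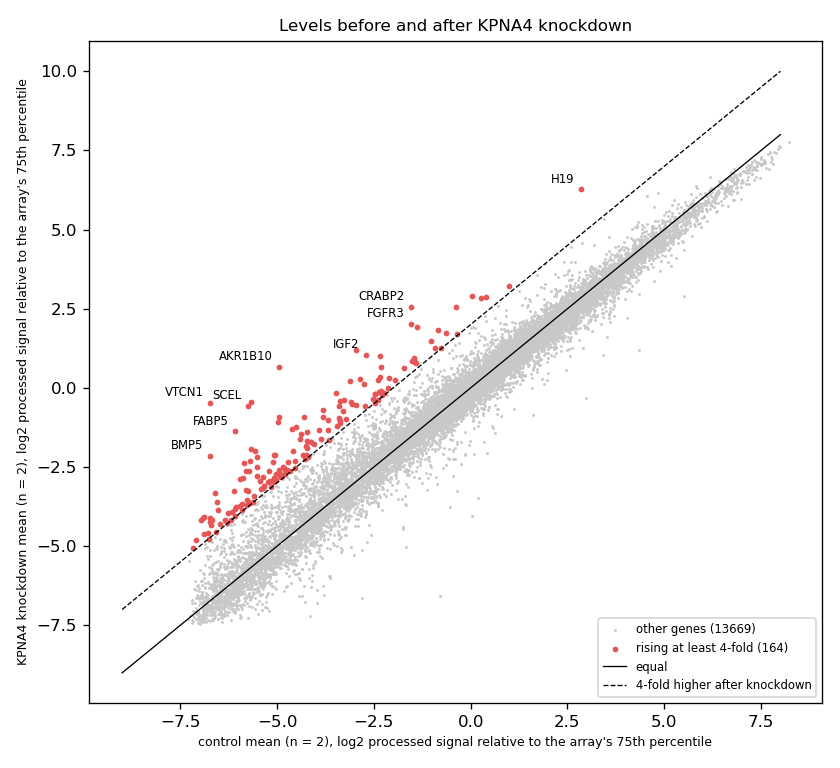
Mean log2 level in the 2 control cultures (x axis) against the mean in the 2 KPNA4 knockdown cultures (y axis) for 13833 genes, with 0 at the 75th percentile of an array. The 164 members (red) lie on or above the dashed 4-fold line, most of them at the left, where control signals were dim, and H19 stands alone at the upper right.

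The choice of threshold cut through a continuous range. Just inside lay TRIM22, with -3.71 and -3.62 in the controls and -1.64 and -1.68 after knockdown and a difference of 2.01, and then ABCA12 and SLC39A2, both with a difference of 2.00. Just outside lay EEF1A2, MANCR and FOXA2, each with a difference of 1.98. The knockdown cultures lay farthest apart in LIPH, by 0.41, in NCCRP1, by 0.36, and in PAQR5, by 0.28, and in these genes too every knockdown value was above every control value.

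The largest differences belonged to proteins of quite different kinds. VTCN1 encodes B7-H4, a surface ligand that restrains T cells, and had log2 levels of -6.63 and -6.81 without and -0.51 and -0.44 with knockdown, a difference of 6.24 or 75.7-fold. AKR1B10, an aldo-keto reductase that reduces retinaldehyde and other aldehydes, had -4.92 and -4.98 in the control and 0.62 and 0.72 in the knockdown cultures, a difference of 5.62. SCEL encodes sciellin, a precursor of the cornified envelope, the protein shell of differentiated squamous cells, and had -5.57 and -5.91 in the controls and -0.58 and -0.55 after knockdown, a difference of 5.18. In these genes the control cultures lay at the dim end, 0.18 apart in VTCN1, 0.06 in AKR1B10 and 0.33 in SCEL. The knockdown cultures lay far above them and within 0.09 of each other. AKR1B15, with 5.25, lay between AKR1B10 and SCEL, and after SCEL came FABP5 with 4.71, BMP5 with 4.60, PRXL2A with 4.16, CRABP2 with 4.10 and CD24 with 4.03. The 19th member, VAV3, still had a difference of 3.36.

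**Figure D2:**
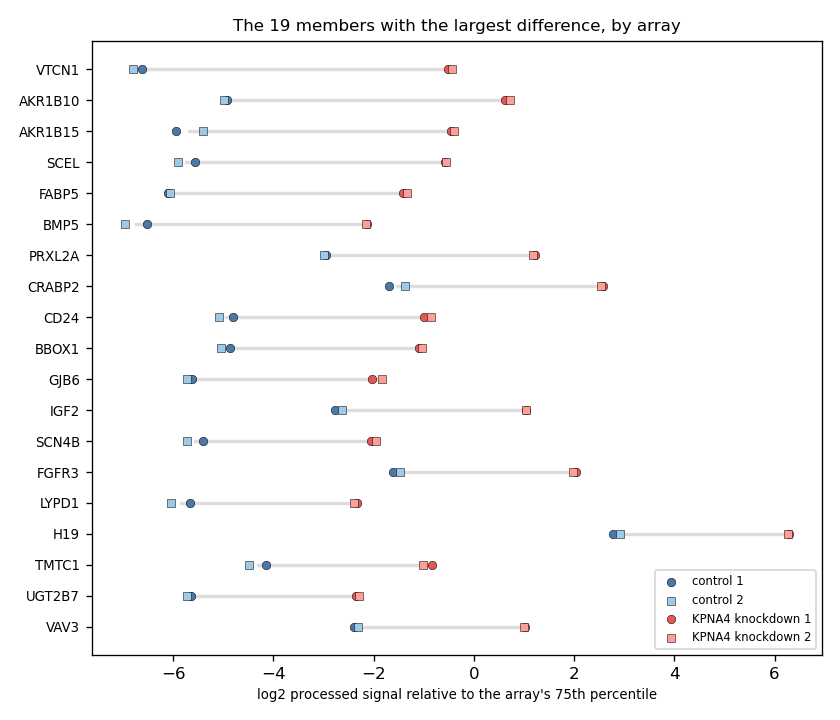
Log2 level relative to the 75th percentile of the array (x axis) of the 19 members with the largest difference (y axis), with 1 point for each of the 4 cultures and a gray line between the group means. In every gene both knockdown cultures lie well to the right of both control cultures, by a mean of 3.36 in VAV3 to 6.24 in VTCN1.

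Promoter letters were read as a further feature that the choice of members did not use. RefSeq sequence of GRCh38.p14 was at hand for 113 of the 164 members, and the 250 bases before the gene start are given here on the gene's strand. SCEL and SBSN, the precursors of the cornified envelope among the members, are shown because each holds the letters TGACTCA or their complement, the binding motif of AP-1 and a frequent element of epidermal genes. They lie at chr13:77535456-77535705 on the plus strand and chr19:35528312-35528561 on the minus strand, and capitals mark the motif, which begins 49 bases before the start of SCEL and 173 and 71 bases before that of SBSN.
SCEL: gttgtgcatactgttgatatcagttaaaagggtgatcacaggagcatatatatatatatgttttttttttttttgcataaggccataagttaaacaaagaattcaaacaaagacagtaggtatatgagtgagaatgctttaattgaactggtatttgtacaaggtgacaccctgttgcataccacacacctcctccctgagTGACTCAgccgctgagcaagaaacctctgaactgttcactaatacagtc
SBSN: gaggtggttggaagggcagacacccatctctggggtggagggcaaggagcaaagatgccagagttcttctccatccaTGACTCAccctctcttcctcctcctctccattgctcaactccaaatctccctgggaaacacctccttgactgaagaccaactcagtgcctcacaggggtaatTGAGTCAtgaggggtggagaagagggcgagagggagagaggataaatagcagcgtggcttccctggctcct

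AQP3, a water and glycerol channel of the epidermis, ACTG2, the smooth muscle gamma actin, and TNNT1, the slow skeletal troponin T, serve as examples. Each holds the TATA box letters TATAAA or their complement close to the start. They lie at chr9:33447594-33447843 on the minus strand, chr2:73892758-73893007 on the plus strand and chr19:55149207-55149456 on the minus strand. Capitals mark the match, which begins 32, 31 and 29 bases before the start. The match in ACTG2 is on the strand opposite to the gene. CEBPA, EFNB2, EREG, ID4 and MMP10, which are not shown, also held a match on either strand that began 29 to 32 bases before the start.
AQP3: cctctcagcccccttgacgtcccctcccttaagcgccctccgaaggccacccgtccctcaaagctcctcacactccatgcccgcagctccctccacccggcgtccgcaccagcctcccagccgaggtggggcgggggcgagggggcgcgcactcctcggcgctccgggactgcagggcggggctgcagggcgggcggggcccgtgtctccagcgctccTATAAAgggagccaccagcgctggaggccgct
ACTG2: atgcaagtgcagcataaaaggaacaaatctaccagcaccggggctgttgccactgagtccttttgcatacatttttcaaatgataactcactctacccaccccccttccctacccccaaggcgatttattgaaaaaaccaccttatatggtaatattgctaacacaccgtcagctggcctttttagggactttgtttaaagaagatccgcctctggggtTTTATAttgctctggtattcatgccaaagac
TNNT1: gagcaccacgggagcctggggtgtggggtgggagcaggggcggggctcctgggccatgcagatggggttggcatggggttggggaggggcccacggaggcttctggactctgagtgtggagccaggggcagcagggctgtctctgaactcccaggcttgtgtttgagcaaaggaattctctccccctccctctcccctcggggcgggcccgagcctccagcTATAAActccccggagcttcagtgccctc

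Counted on both strands of these 250 bases, TATAAA was in 21 of the 113 member promoters, or 18.6%, against 11.1% of all 27305 promoters and 6.74% of the 11455 promoters of genes well above background on all 4 arrays. TGACTCA was in 8, or 7.08%, against 4.16% and 2.93%. The other holders of TGACTCA were LYPD1, VAV3, IL1RN, UNC5B-AS1, HSD17B3 and MRAP2. The ETS letters CCGGAAG were in 3, or 2.65%, against 8.82% and 14.9%. CpG-rich promoters, with at least 50% G and C and an observed over expected CpG ratio of at least 0.6, made up 47.8% of the members, 44.9% of all promoters and 71.8% of those of well measured genes. The letters of the GC box, GGGCGG, were in 49.6% against 42.3% and 64.2%, those of the E-box, CAGCTG, in 17.7% against 13.8% and 13.1%, and CCAAT in 31.0% against 33.0% and 35.1%. The KLF box GGGTGTG was in 6.19% against 6.52% and 6.22%, and the grainyhead core ACCGGT in 1.77% against 1.41% and 1.82%. The antioxidant element TGACNNNGC, which in SCEL overlaps the AP-1 match, was in 14.2% against 11.03% and 12.05%. Of the retinoid genes described below, 5 had a promoter here, and neither these nor any other of the 113 held the hormone receptor hexamers (AGGTCA, its variant AGTTCA, and likewise GGGTCA and also GGTTCA) as a direct repeat with 1, 2 or 5 bases between, which 0.201% of all promoters did. These shares describe letters in a short window and not binding.

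Of the 12 members at the cell surface, in junctions or in the cornified envelope, CD24, a surface glycoprotein anchored by lipid, had -4.81 and -5.10 without and -1.003 and -0.85 with knockdown, a difference of 4.03. GJB6 and GJB2 encode neighboring connexins, which form gap junctions between keratinocytes and are known for their part in hearing loss and skin disease. GJB6 had -5.63 and -5.72 in the control and -2.03 and -1.84 in the knockdown cultures, and GJB2 had -1.39 and -1.41 in the controls and 0.77 and 0.82 after knockdown. Both connexins were higher in each knockdown culture, with differences of 3.74 and 2.20. SBSN, suprabasin, had -5.35 and -5.40 without and -2.93 and -2.73 with knockdown, a difference of 2.55. LYPD1, of the Ly6 family of surface proteins, differed by 3.49, the junction proteins CGNL1 and PLEKHA7 by 2.94 and 2.26, the uroplakin UPK1B by 2.79, the protocadherin PCDH1 by 2.56 and NCCRP1 by 2.07.

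Gene lists written by hand gave the surroundings of the members. Over all 19540 genes tested with limma, 20.3% were higher and 29.5% lower after knockdown at an adjusted p under 0.05, and the median difference was -0.10. The 14 lists held 437 tested genes that are not members, of which 181 were higher and 124 lower. Without scaling between the arrays the median of all genes was 0.40 and these counts were 290 and 46, so the split between higher and lower genes rests on the scaling. With normexp background correction no gene passed the adjusted threshold, and at an unadjusted p under 0.05 the lists had 62 higher and 37 lower. Only 30 of the 164 members were in any list.

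Among listed cornified envelope and desquamation genes, 13 of 32 tested non-members were higher and 9 lower, with a median of 0.10. Transglutaminase 1, which cross-links the envelope and is encoded by TGM1, rose by 1.57 (limma adjusted p = 0.00464), whereas LCE3D, a late cornified envelope protein, fell by 1.07 (adjusted p = 0.00134). Among listed adhesion and junction genes 20 of 41 were higher and 8 lower, with a median of 0.24. The desmosomal DSG3 rose by 1.73 (adjusted p = 0.00114) and E-cadherin, CDH1, by 1.16 (adjusted p = 0.00237), while the hemidesmosomal integrin ITGB4 fell by 1.15 (adjusted p = 0.00102). Of the surface mucins, CEACAM and Ly6 proteins 10 of 22 were higher and 4 lower, with a median of 0.31.

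Among the members were 6 genes that bind, carry, sense or break down retinoids. CRABP2 carries retinoic acid to its nuclear receptors and had -1.69 and -1.38 in the control and 2.58 and 2.54 in the knockdown cultures, a difference of 4.10 or 17.1-fold. However, a further probe of CRABP2 read -0.18, and the mean over its probes differed by 1.96. CYP26A1, the enzyme that clears retinoic acid, had -2.96 and -2.97 in the controls and -0.53 and -0.53 after knockdown, a difference of 2.43. The knockdown cultures of both genes were within 0.05 of each other, and the control cultures of CRABP2 were 0.31 apart. CYP27C1, which desaturates retinol in skin, differed by 3.10. RBP4, the carrier of retinol in blood, had -6.84 and -6.98 without and -4.06 and -4.13 with knockdown, and STRA6, its receptor at the cell surface, had -5.23 and -5.23 in the control and -2.95 and -2.97 in the knockdown cultures. The carrier and its receptor thus differed by 2.81 and 2.27, both from dim control signals.

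The rest of the list of retinoid and aldehyde metabolism moved in both directions. Of 21 tested genes 5 were members, and of the other 16, 7 were higher and 6 lower, with a median of 0.08. DHRS3, which reduces retinaldehyde back to retinol, rose by 1.21 (limma adjusted p = 0.00187) and the receptor RARG by 1.14 (adjusted p = 0.00308). RARA fell by 0.62 (adjusted p = 0.004), ALDH1A3, which makes retinoic acid, fell by 0.73 (adjusted p = 0.00246), and RBP7, another cellular retinol carrier, fell by 1.62 (adjusted p = 8.78e-04).

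Enzymes that reduce, oxidize or conjugate small molecules made up 7 members. Beside AKR1B10 stood AKR1B15, with -5.96 and -5.41 in the controls and -0.46 and -0.41 after knockdown, a difference of 5.25. These aldo-keto reductases are closely similar in sequence, so their probes may share signal, and AKR1B1, the third of the cluster, lay at -0.21 (limma adjusted p = 0.0869). UGT2B7 and UGT2B11, which attach glucuronic acid to steroids and drugs, differed by 3.36 and 2.25 and are also close relatives whose probes may cross-hybridize. UGT2B7 had -5.65 and -5.72 without and -2.36 and -2.29 with knockdown. SULT2B1, the sulfotransferase that makes cholesterol sulfate in epidermis, had -5.59 and -5.30 in the control and -3.01 and -2.86 in the knockdown cultures, a difference of 2.51. CYP2R1, which hydroxylates vitamin D, differed by 2.25 and HSD17B3, which makes testosterone, by 2.20.

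The list of xenobiotic and oxidative stress enzymes had 10 higher and 9 lower of 25 non-members, with a median of 0.01. NQO1 lay at -0.07 (limma adjusted p = 0.334), HMOX1 fell by 0.65 (adjusted p = 0.00518) and the aldo-keto reductase AKR1C1 fell by 1.67 (adjusted p = 0.001), whereas GPX2 rose by 1.86 (adjusted p = 6.91e-04). NQO1, HMOX1, AKR1C1 and GPX2 are, like AKR1B10, known targets of the oxidative stress factor NRF2.

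Of 9 members in amino acid, carnitine and sugar metabolism, BBOX1, which completes the synthesis of carnitine, had -4.87 and -5.06 in the controls and -1.10 and -1.04 after knockdown, a difference of 3.90. PRODH, which starts the breakdown of proline, differed by 2.75, OGDHL, a relative of the 2-oxoglutarate dehydrogenase of the citric acid cycle, by 2.62, the asparaginase ASPG by 3.04 and CBS, which makes cystathionine from homocysteine, by 2.09. The folate enzyme ALDH1L1 differed by 2.07 and GNE, the entry to sialic acid synthesis, by 2.02.

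Members that carry or cut lipids included FABP5, the epidermal fatty acid binding protein, with -6.11 and -6.06 without and -1.41 and -1.34 with knockdown, a difference of 4.71. Its 2 further probes differed by 4.62 and 3.98. LIPH, a lipase that releases lysophosphatidic acid, had -6.28 and -6.79 in the control and -3.65 and -4.06 in the knockdown cultures, a difference of 2.68, with the control and the knockdown cultures each far apart, by 0.51 and 0.41. ABCA12 loads lipids into the lamellar granules of the epidermis and had -2.34 and -2.60 in the controls and -0.44 and -0.49 after knockdown. In the list of the epidermal lipid barrier 10 of 28 non-members were higher and 10 lower, with a median of -0.01. Thus the lipoxygenase ALOXE3 fell by 1.37 (limma adjusted p = 0.00248), while ELOVL4, which lengthens fatty acids, rose by 0.67 (adjusted p = 0.00696).

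The 8 secreted defense proteins and their surface relatives had the highest median difference of the roles, 2.997. SLPI, an inhibitor of neutrophil elastase in saliva, had -3.45 and -3.50 without and -0.15 and -0.17 with knockdown, a difference of 3.32. WFDC2, of the same protein family, had -1.03 and -0.995 in the control and 1.52 and 1.46 in the knockdown cultures, a difference of 2.497. SCGB1A1, a secretoglobin known from the airway, differed by 3.33, with -3.17 and -3.09 in the controls and 0.22 and 0.18 after knockdown. Control and knockdown cultures each lay within 0.08 of their partner in these genes. IL1RN, the antagonist of the interleukin 1 receptor, had -2.85 and -2.89 without and 0.27 and 0.28 with knockdown, a difference of 3.14, but its further probe read 0.11. The complement regulator CFI and the complement component C4B differed by 3.28 and 2.23 and thrombomodulin, THBD, by 2.85. C4B as well as the galectin LGALS9C, with 2.65, have near-identical copies in the genome.

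The list of antimicrobial and antiprotease proteins had 11 of 19 non-members higher and 2 lower, with a median of 0.65. In the list of cytokines, chemokines and their receptors 10 of 36 were higher and 21 lower, with a median of -0.38. CSF3 fell by 3.37 (limma adjusted p = 3.04e-04), IL6 by 2.63 (adjusted p = 5.06e-04), IL1A by 2.35 (adjusted p = 4.89e-04) and IL1B by 1.33 (adjusted p = 0.00113). The ligands IL1A and IL1B thus fell while the antagonist IL1RN was among the members.

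Ligands, receptors and their partners were the most numerous role, with 22 members. BMP5, a bone morphogenetic protein, had -6.52 and -6.97 in the control and -2.13 and -2.15 in the knockdown cultures, a difference of 4.60. IGF2, insulin-like growth factor 2, had -2.76 and -2.62 in the controls and 1.03 and 1.04 after knockdown, a difference of 3.73, and IRS1, which relays insulin and growth factor signals, differed by 2.01. FGFR3, a fibroblast growth factor receptor, had -1.62 and -1.47 without and 2.04 and 1.99 with knockdown, a difference of 3.56. In IGF2 and FGFR3 the knockdown cultures reached levels above the 75th percentile of their array from below it. EFNB2 and EFNB3, membrane-bound ligands of Eph receptors, differed by 3.30 and 2.74, and EFNB2 had -1.37 and -1.40 in the control and 1.90 and 1.93 in the knockdown cultures. The neighbors WNT6 and WNT10A, secreted ligands of the Frizzled receptors, differed by 2.59 and 2.18. EREG, a ligand of the EGF receptor, had -4.12 and -4.36 in the controls and -1.89 and -1.91 after knockdown, a difference of 2.34, and NRG4, a ligand of ERBB4, differed by 2.11. Further receptors were the folate receptor FOLR1 with 3.12, the steroid receptor of the membrane PAQR5 with 2.96, the metabolite receptors HCAR3 and HCAR2 with 2.94 and 2.13, the scavenging chemokine receptor ACKR3 with 2.27 and the netrin receptor UNC5B with 2.26. HCAR2 and HCAR3 differ in few bases and their probes may share signal.

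In the list of EGF ligands, ERK output and feedback genes 9 of 38 non-members were higher and 14 lower, with a median of 0.09. Heparin-binding EGF, HBEGF, fell by 1.36 (limma adjusted p = 0.00183) and AREG, another ligand of the EGF receptor, lay at -0.09 (adjusted p = 0.517). The feedback phosphatase DUSP4 fell by 1.14 (adjusted p = 0.00157) and DUSP5 rose by 1.11 (adjusted p = 0.00153).

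Transcription and chromatin factors made up 16 members. FOXQ1 and FOXA1, forkhead factors of epithelia, differed by 2.86 and 2.27, and FOXA1 had -3.85 and -3.90 without and -1.63 and -1.57 with knockdown. CEBPA, which works in the suprabasal epidermis, had -2.49 and -2.44 in the control and -0.23 and -0.18 in the knockdown cultures, a difference of 2.26. The groups were clearly apart in these genes, and the control cultures of FOXQ1 were the most uneven, 0.51 apart. HES2, a relative of the Notch target HES1, had -3.81 and -3.54 in the controls and -1.37 and -1.30 after knockdown, ID4, which blocks helix-loop-helix factors, had -4.47 and -4.86 without and -2.70 and -2.53 with knockdown, and HOXB13 had -2.16 and -2.31 in the control and -0.19 and -0.13 in the knockdown cultures. The corepressor TLE2 differed by 2.97, TOX2 by 2.90, the histone variant MACROH2A2 by 2.56, and the neural factors NEUROD2 and POU4F1 by 2.27 and 2.02.

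Among listed transcription factors of keratinocyte differentiation 21 of 41 non-members were higher and 3 lower, with a median of 0.49. GRHL3 rose by 1.599 (limma adjusted p = 0.00128), ZNF750 by 1.48 (adjusted p = 7.67e-04) and OVOL1 by 1.76 (adjusted p = 7.24e-04), all of them drivers of the late steps of epidermal differentiation. KLF4 lay at -0.10 (adjusted p = 0.372) and TP63 at -0.08 (adjusted p = 0.576).

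Proteins of contraction and the cytoskeleton made up 13 members. A gene for each kind of subunit of the troponin complex, which switches on contraction of striated muscle, was among them. TNNT1 had 0.27 and 0.50 in the controls and 2.97 and 2.77 after knockdown, a difference of 2.49. TNNI2, the inhibitory subunit of fast muscle, had -1.41 and -1.53 without and 0.93 and 0.95 with knockdown, a difference of 2.41. TNNC1, the calcium-binding subunit, had -5.99 and -6.55 in the control and -3.89 and -4.001 in the knockdown cultures, a difference of 2.32. The control cultures of TNNC1 were 0.57 apart. The troponin T gene of fast muscle, TNNT3, is no member and rose by 1.69 (limma adjusted p = 0.00104). MYL7, the light chain of atrial myosin, had -4.94 and -5.14 in the controls and -2.09 and -2.13 after knockdown, a difference of 2.93, and ACTG2 had -3.31 and -3.28 without and -0.70 and -0.75 with knockdown, a difference of 2.57. VIM, vimentin, the intermediate filament of mesenchymal cells, had -2.18 and -2.48 in the control and 0.29 and 0.37 in the knockdown cultures, a difference of 2.66. LCP1, an actin bundler of leukocytes, differed by 2.55 and MYO5B, a myosin that carries vesicles, by 2.37.

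The summed linear level of 6 fibroblast markers was 0.14 and 0.15 in the control cultures and 0.33 and 0.35 in the knockdown cultures. COL3A1 was well above background on no array and LUM on the control arrays only. COL1A1 rose by 1.62, COL1A2 by 1.24 and PDGFRB by 0.56, whereas LUM fell by 2.58 and DCN lay at -0.10 (limma adjusted p = 0.705). The 4 leukocyte markers with a probe summed to 0.49 and 0.58 in the control and 0.20 and 0.23 in the knockdown cultures. CD68 was the brightest of these 4, with a mean log2 level of -1.06 in the controls, and fell by 1.37. These sums thus rest on few genes. The part of these markers' cells in the levels of VIM, ACTG2 and LCP1 was not tested. Among listed extracellular matrix genes and proteases 21 of 43 non-members were higher and 10 lower, with a median of 0.30. Its members LOXL4, a lysyl oxidase, and MMP10, a stromelysin, differed by 3.04 and 2.13, while the stromelysin MMP3 fell by 3.14 (limma adjusted p = 3.04e-04). Other matrix members were the macrophage elastase MMP12 with 2.88 and the matrix Gla protein MGP with 2.498.

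Of 8 channels and transporters, SCN4B, a subunit of sodium channels, had -5.41 and -5.73 in the controls and -2.06 and -1.96 after knockdown, a difference of 3.56. AQP3 had -4.46 and -4.30 without and -1.47 and -1.43 with knockdown, a difference of 2.93, and SCNN1A, the alpha subunit of the epithelial sodium channel, had -3.48 and -3.32 in the control and -0.94 and -0.98 in the knockdown cultures, a difference of 2.44. The GABA receptor subunit GABRP differed by 3.18, the potassium channel KCNK2 by 2.61 and the zinc transporter SLC39A2 by 2.00. All of these lay below the 75th percentile of the array in every culture. Among listed channels, transporters and aquaporins 13 of 24 non-members were higher and 8 lower, with a median of 0.48. AQP5, the aquaporin of salivary glands, fell by 0.46 (limma adjusted p = 0.01).

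Vesicle traffic gave 9 members, among them SYTL2, with a difference of 2.95, and the small GTPases RAB7B and RAB15, with 2.38 and 2.37. Signaling inside the cell gave 7, among them VAV3, an exchange factor that activates small GTPases, with -2.39 and -2.31 in the controls and 1.02 and 1.00 after knockdown and a difference of 3.36, and INPP5D, a lipid phosphatase of blood cells, with 2.90. PRXL2A, a peroxiredoxin-like protein, had -2.95 and -2.98 without and 1.21 and 1.18 with knockdown, a difference of 4.16. TMTC1, a mannosyltransferase of the endoplasmic reticulum, had -4.15 and -4.48 in the control and -0.83 and -1.02 in the knockdown cultures, a difference of 3.38. The interferon-stimulated genes gave a single member, TRIM22, and 21 of the 43 other genes of that list were higher and 8 lower, with a median of 0.40. The p53 and growth arrest list gave none, with 6 higher and 13 lower of 32 and a median of -0.06.

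**Figure D3:**
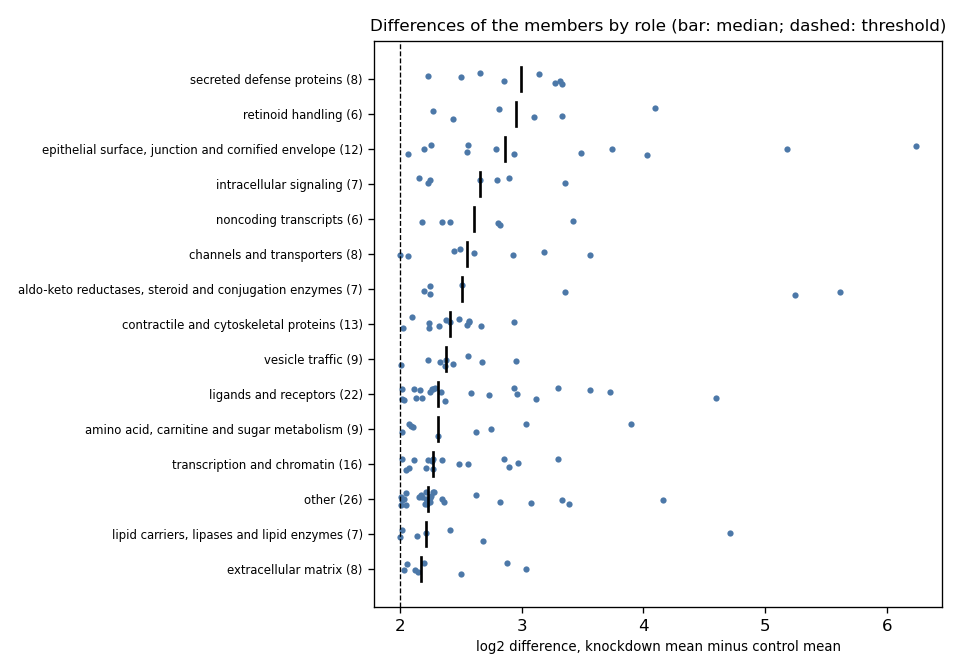
Log2 difference, knockdown mean minus control mean (x axis), of each of the 164 members (points) by role (y axis, with the number of members), with the median as a bar and the threshold of 2 as a dashed line. Role medians run from 2.17 for the extracellular matrix to 2.997 for secreted defense proteins, and the values above 5 are those of VTCN1, SCEL, AKR1B10 and AKR1B15.

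The position of the members on the chromosomes was also read. It entered their choice only through the limit to autosomes and the left-out families. With tested genes placed in order, 23 of the 164 members, or 14.02%, had another member among the 2 nearest genes on either side, against 4.17% of 14414 other genes. They formed 11 runs. Among these were AKR1B10 with AKR1B15, UGT2B7 with UGT2B11 and HCAR2 with HCAR3, whose probes may share signal. How far shared signal enters the share of 14.02% was not tested. The longest run held MRPL23-AS1, H19 and IGF2 on chromosome 11. There H19, a noncoding RNA, and IGF2 are known as imprinted neighbors that are normally read from opposite parental copies. H19 had 2.78 and 2.92 in the controls and 6.28 and 6.27 after knockdown, a difference of 3.42, and MRPL23-AS1 had -4.17 and -4.34 without and -1.84 and -1.85 with knockdown, a difference of 2.41. MRPL23, the gene next to them, lay at -0.07 (limma adjusted p = 0.422), TNNT3 beyond it rose by 1.69 (adjusted p = 0.00104) and LSP1 by 0.57 (adjusted p = 0.00817), and the member TNNI2 followed. On the side of IGF2, INS lay at -0.44 (adjusted p = 0.0638) and TH at -0.78 (adjusted p = 0.131), and ASCL2 rose by 1.48 (adjusted p = 0.00159). Higher genes and genes that did not pass the test were thus interspersed along this stretch.

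The other runs were pairs: VTCN1 with TENT5C, UNC5B with its antisense transcript UNC5B-AS1, HCAR2 with HCAR3, GJB2 with GJB6, SCEL with POU4F1, NRG4 with TMEM266, WNT6 with WNT10A, UGT2B7 with UGT2B11, PLA2G7 with ADGRF1, and AKR1B10 with AKR1B15. Several are duplicated genes of a common family. In VTCN1 and TENT5C, which are unrelated, the gene between them, MAN1A2, lay at -0.18 (limma adjusted p = 0.105). Between SCEL and POU4F1, SLAIN1 fell by 1.06 (adjusted p = 0.00188). The gene beside GJB6, CRYL1, fell by 0.51 (adjusted p = 0.0129), and that beside AKR1B15, BPGM, rose by 0.22 (adjusted p = 0.0417). Some other neighbors that are no members were also higher. UGT2B10, beside UGT2B7, rose by 1.86 (adjusted p = 5.10e-04) and ADGRF4, near ADGRF1, by 1.31 (adjusted p = 0.00135). TMPRSS11E and AMTN, in the stretch of UGT2B7, read 3.51 and 2.91 higher, and CIMAP1C, near NRG4, 2.33 higher. Both control signals of TMPRSS11E, AMTN and CIMAP1C lay below the lowest signal well above background on their array. Those lowest signals were -7.42 and -7.34 in control cultures 1 and 2, so the sizes of these differences are uncertain.

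**Figure D4:**
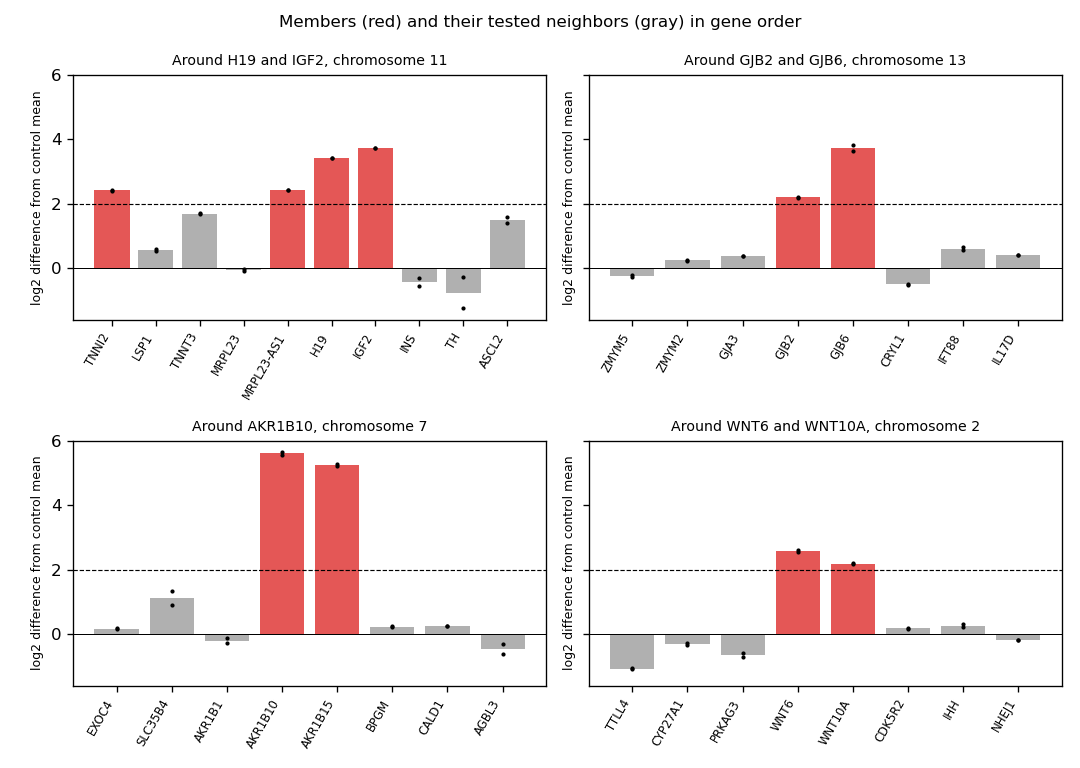
Log2 difference from the control mean (y axis) of members (red bars) and their tested neighbors (gray bars) in gene order (x axis) for 4 stretches, with bars at the mean of the 2 knockdown cultures, black points at each knockdown culture and the threshold of 2 dashed. Some gray bars lie near or below 0, such as MRPL23 at -0.07 and AKR1B1 at -0.21. Others rise without reaching the threshold, such as TNNT3 at 1.69, ASCL2 at 1.48 and SLC35B4 at 1.11.

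Further probes of the members gave a second reading of the same RNA. Of 37 members with a further probe, 22 had 25 that were well above background on all 4 arrays. Of these 25 probes 17 differed by at least 4-fold and 18 by at least 2-fold, against 2.87% of 4071 further probes of other genes at the 2-fold level. Their median difference was 2.34, and that of the other genes' probes -0.07. Members were chosen at their brightest probe on the same arrays and the other genes were not, so this contrast partly follows from the choice. AKR1B10 had 5.37 at its further probe, PRXL2A 4.33 and TMTC1 3.30. A further probe of CRABP2 had -4.96 and -5.03 in the control and -5.21 and -5.14 in the knockdown cultures, a difference of -0.18, and one of GNAO1, a G protein subunit, lay at -0.02. Low values were also read for IL1RN with 0.11, MYO5B with 0.36, SYNGR1 with 0.38 at 1 of 3 further probes, EML1 with 0.86 and TOM1L2 with 0.93. For these genes the difference was not seen at every probe.

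**Figure D5:**
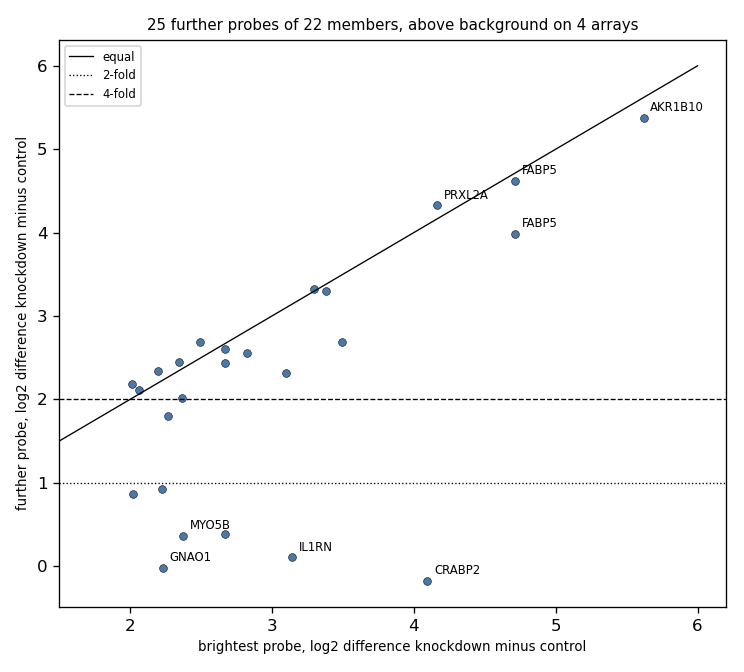
Log2 difference, knockdown minus control, at the brightest probe of a member (x axis) against that at a further probe (y axis) for 25 further probes of 22 members that were well above background on all 4 arrays. Most points lie along the line of equal differences, and those of CRABP2, IL1RN, GNAO1, MYO5B and 1 probe of SYNGR1 lie near 0.

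The members' signals were dim, which bears on how firmly their levels are known. In the control cultures 125 of the 164 lay below the lower quartile of the signals of the 13833 genes, as a measure of distance from background and not of transcript amount. With normexp background correction 90 genes met the rule, all of them among the 164, and the median difference over the 164 was 2.03.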

How the data were processed

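Gene expression was measured in 2 control and 2 KPNA4 knockdown cultures of Ca9-22 cells, grouped by the sample labels. The authors deposited the Feature Extraction 11.0.1.1 output of each array, in which the processed intensity has background and spatial trend removed. They also deposited a table whose values are that signal as a ratio to the 75th percentile of its array, for 24209 of 34127 probes. The median of its columns was 0.327 to 0.334. Outlier flags in the deposited output removed 333 to 355 of 43118 gene spots per array.

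The log2 of the deposited processed signal was averaged over the spots of a probe, and the 75th percentile of each array (1466 and 1381 in controls, 1938 and 2096 after knockdown) was subtracted. A probe counted as well above background where most of its unflagged spots did, which held for 70.2% to 71.0% of probes per array, and no gene spot was saturated. Probes were named through RefSeq accessions (GRCh38.p14), which matched 25771 probes and served only for names and gene order, since the array grid was drawn on another build. The groups were fitted by limma (version 3.58.1, R version 4.3.3) with moderated variances, Benjamini-Hochberg adjustment and a threshold of 0.05, over the 19540 genes well above background in both cultures of a group. All arrays shared 1 slide and 1 scan. There is no read depth, and 2 arrays per group limit the precision.

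The members, the gene lists and the tests were chosen with earlier results of these data known, and roles were assigned by hand, after values were seen, to 138 of the 164 members. Named were KPNA4, the 20 largest differences, the 4 largest members of each list, the members and other genes nearest the threshold, those with the least even knockdown arrays and those with a further probe below 0. Other genes were named after their values were seen. Some genes that this rule names are not reported here. Tested on simulated data with 19540 genes, limma recovered 44 of 50 genes changed by 2 on the log2 scale, 34 of 50 changed by 1 and 1 of 50 changed by 0.5, and called 7 unchanged genes. Far fewer genes were changed there than the 3974 higher and 5764 lower ones called in the data. The simulated rates may therefore not carry over to the data. Alternatives were quantile, median and no scaling, normexp on the spot median and local background intensity, the deposited ratio table, other probe and filter rules, moderation with a trend and robustly, a block for the replicate number, stricter thresholds and each array left out. The hormone receptor hexamers, the antioxidant element, the dimmest probe and the array-by-array 4-fold rule were added after the data were seen.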

Additional observations from a re-analysis of the deposited data

How the results depend on the processing

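The number of members, 164, was 147 to 164 under quantile and median scaling, the deposited table and the mean over probes, 164 with the dimmest probe well above background, of which 157 were members, and 138 with the array-by-array rule. It was 305 without scaling, 90 with normexp, 304 where both arrays of 1 group sufficed, 314 without a filter on dim probes, 33 at 8-fold, 664 at 2-fold and 158 to 165 with 1 array left out. No scaling, the looser filters and the 2-fold rule kept all 164, and the other changes shared 90 to 163, or 33 at 8-fold. No difference of the 46 members named by rule fell below 1, the lowest being 1.29 in the mean over probes. Higher and lower genes, 3974 and 5764, were 11256 and 1046 without scaling, 2133 and 2341 at an adjusted p under 0.01, and 2152 to 3595 and 2524 to 4743 with 1 array left out, falling by over 1.5 times without knockdown replicate 1 (2206 and 3133) or knockdown replicate 2 (2152 and 2524). The lists' 181 and 124 were 290 and 46 without scaling, 142 and 77 at an adjusted p under 0.01, and 144 to 181 and 77 to 108 with 1 array left out, with 77 lower without knockdown replicate 2. With normexp limma called 0 higher and 0 lower genes, and 0 and 0 in the lists, against 642 and 522, and 62 and 37, at an unadjusted p under 0.05. KPNA4 was then at -1.96 (adjusted p = 0.651, range over alternatives 3.80e-05 to 0.651). The cause was not tested. With each array left out KPNA4 lay between -1.97 and -1.67. Deviations of same-numbered cultures from their group means had a correlation of -0.03. With 2 cultures per group this is by construction the same value for both numbers. It cannot show whether the cultures were paired. With the replicate number as a block 3262 genes were higher and 4637 lower, 171 and 111 in the lists, and KPNA4 was at -1.82 (adjusted p = 0.00534).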
